A study of Mus musculus with 22 samples.

Results

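The 9 genes described here encode proteins by which vessel walls start, limit and dissolve blood clots: F3, Tfpi, Thbd, Procr, F8, Vwf, F5, Plat and Plau. They were taken by symbol from a deposited table of read counts that lists 55367 genes, and all 9 passed the filter on low counts, which 22409 genes passed. The 22 RNA-seq libraries came from cells of mouse liver labelled HSC, which commonly stands for hepatic stellate cells. The 12 diet libraries came from mice given CDA-HFD, a fat-rich diet of defined amino acids that lacks choline and serves as a model of steatohepatitis, and the 10 control libraries came from mice given chow. Cells were taken 0, 6, 12 or 18 h into the light cycle (zeitgeber time, ZT), where ZT0 is lights on and ZT12 lights off. Each diet group held 3 libraries, while in control ZT0 and ZT18 held 3 each and ZT6 and ZT12 held 2 each. The labels give an age of 20 weeks and a diet started at 8 weeks. They give its length as 12 weeks in one field and 6 months in another, and no strain or genotype was used here. They do not say how the cells were isolated.

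Clotting starts when tissue factor, the product of F3, meets factor VII in plasma. Tissue factor pathway inhibitor (Tfpi) blocks that step. Factors VIII (F8) and V (F5) are cofactors that speed the later steps, and von Willebrand factor (Vwf) carries factor VIII and tethers platelets. Thrombomodulin (Thbd) and the endothelial protein C receptor (Procr) turn thrombin towards activating protein C, an anticoagulant. The plasminogen activators of tissue type (Plat) and urokinase type (Plau) start the breakdown of fibrin. In liver, sinusoidal endothelium is the main source of factor VIII, while hepatocytes secrete most other clotting factors, factor V among them.

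Each library held 19754805 to 41665623 counts in genes. The labelled cell type was checked against its markers. The summed level of 17 stellate cell and fibroblast markers ran from 182 to 564 CPM (a gene's counts relative to the library's total, corrected for library composition by TMM) in diet libraries and from 321 to 1246 CPM in control libraries. That of 24 endothelial markers ran from 1777 to 4303 CPM in diet libraries and from 28484 to 54902 CPM in control libraries. Endothelial RNA was thus far more abundant than stellate RNA in the control libraries, against their label. All 24 endothelial markers were lower in diet libraries, with a median log2 change of -4.07. All 14 lymphocyte markers were higher, summing to 2775 to 6494 CPM in diet libraries and 494 to 1925 CPM in control libraries, and the highest control sum was that of replicate 2 of ZT0. In such mixed samples, fewer cells of a type and less RNA per cell cannot be told apart. The labels do not state whether libraries stem from separate animals, so p-values here measure the spread between libraries, which may be technical. In control, replicate 2 of ZT0 had the lowest endothelial sum and replicate 1 of ZT18 the highest stellate sum, and these 2 libraries had stood apart in an earlier analysis.

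The promoters of the initiator F3 and of its inhibitor Tfpi are shown because these genes moved in opposite directions under the diet. Each sequence gives the 250 bases before a RefSeq start, from RefSeq on GRCm38.p6. Capitals mark matches on either strand to CACCC (a core of sites of KLF factors), TGACTCA (AP-1), AGGAAG (ETS factors) or CACGTG (the E-box of clock factors).
F3 promoter, chr3:121723287-121723536, plus strand: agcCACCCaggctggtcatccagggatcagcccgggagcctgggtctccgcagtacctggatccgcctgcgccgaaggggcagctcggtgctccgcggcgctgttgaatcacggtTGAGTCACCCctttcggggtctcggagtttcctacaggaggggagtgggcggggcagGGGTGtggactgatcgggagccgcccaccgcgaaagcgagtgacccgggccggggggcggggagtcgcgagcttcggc
Tfpi promoter, chr2:84476760-84477009, minus strand: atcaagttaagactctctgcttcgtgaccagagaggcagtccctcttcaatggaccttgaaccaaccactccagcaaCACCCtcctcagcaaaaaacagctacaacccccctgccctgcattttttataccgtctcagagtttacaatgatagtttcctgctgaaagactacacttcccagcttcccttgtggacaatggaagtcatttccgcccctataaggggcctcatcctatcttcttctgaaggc
The F3 window held 3 matches to CACCC and 1 to TGACTCA, which shares bases with a CACCC match. The Tfpi window shown held 1 match to CACCC, and neither window shown held AGGAAG or CACGTG. RefSeq has another start of Tfpi, whose window (chr2:84474175-84474424, not shown) held 1 match to CACCC and 2 to AGGAAG. Of 32851 promoter windows of this length, 52.0% held CACCC, 4.46% TGACTCA, 29.5% AGGAAG and 6.02% CACGTG. A RefSeq promoter was at hand for 5 of the 9 genes. Base composition differed as well, at 70% G and C in the F3 window and 48.4% in the Tfpi window.

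Diet and control were first compared over the 4 times together. By edgeR's quasi-likelihood test, with p-values adjusted over all 22409 genes and calls made at an adjusted p under 0.05, 1 of the 9 genes was higher in diet libraries (F3) and 6 were lower (F8, Tfpi, Thbd, Vwf, Plau and Plat). Procr and F5 were not called. Of all genes tested, 52.4% were called, 27.5% higher and 24.9% lower. Of all genes called, 52.4% were higher, and 62.6% with scaling by library size alone. The median log2 change was -1.28 over the 9 genes and 0.08 over all genes tested (0.26 with library size alone). Without the 2 control libraries that stood apart, F3 changed by 1.72, F8 by -4.35, Tfpi by -3.64, Thbd by -3.06, Vwf by -1.46, Plau by -1.43 and Plat by -1.005, all still called, and Procr was called lower (-0.41, adjusted p = 0.0174). Diet and control libraries did not overlap for 4 of the 9 genes (17.1% of all genes tested), F3 with diet higher and F8, Tfpi and Thbd with diet lower, where 7.35% of all genes tested showed the first pattern and 9.78% the second.

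**Figure D1:**
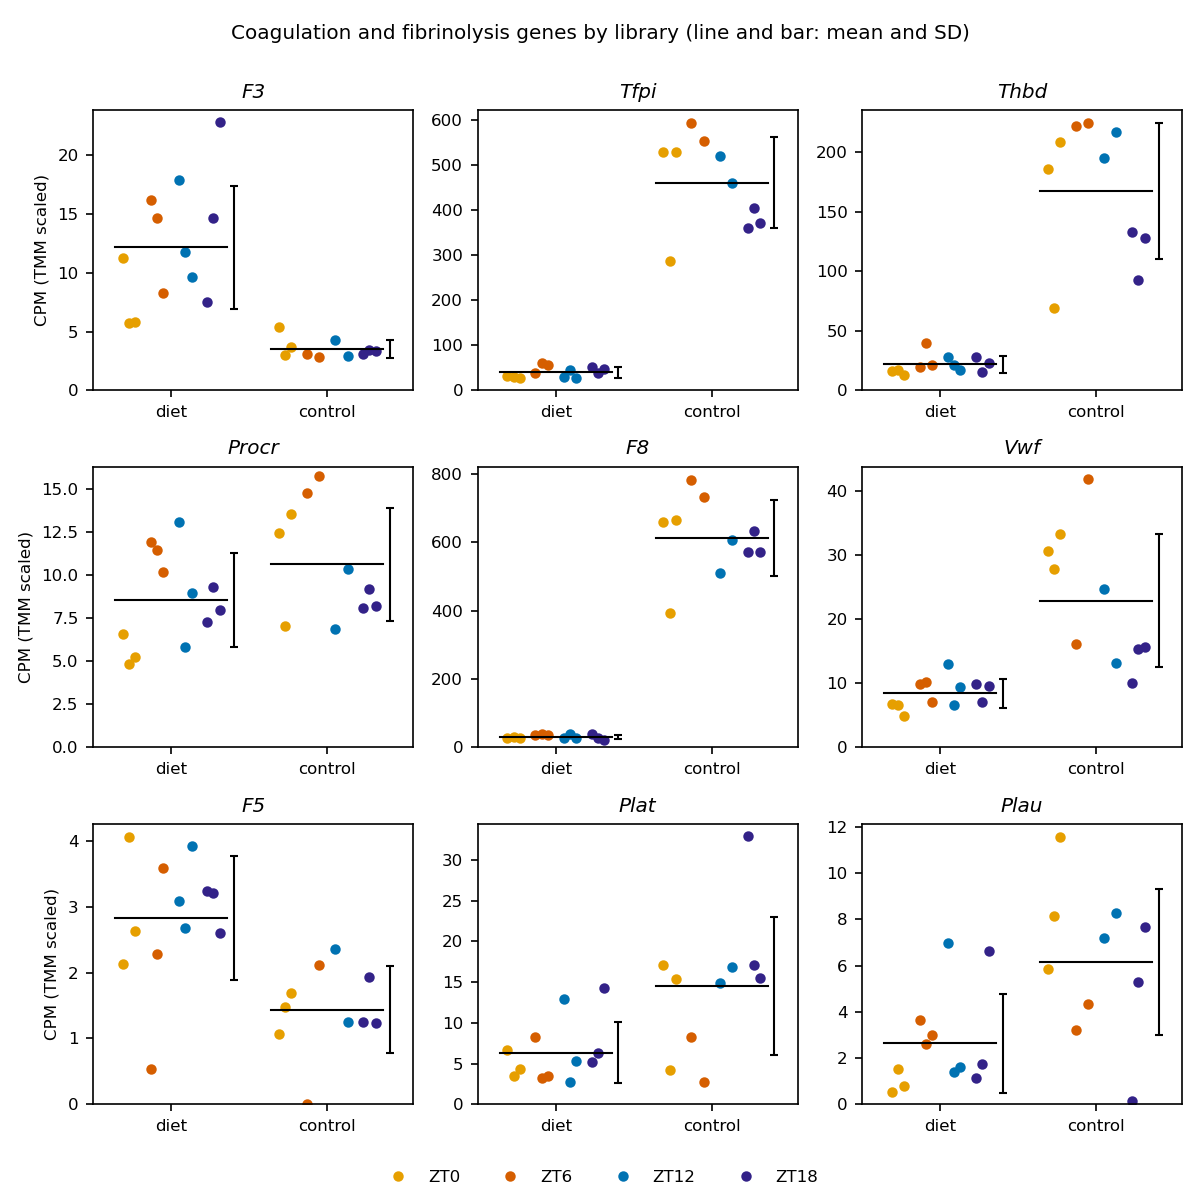
Level of each gene in CPM (TMM scaled, linear axis from 0) in each of the 12 diet libraries (left) and 10 control libraries (right). Points are libraries coloured by zeitgeber time, and the line and bar give the mean and SD. For F8, Tfpi and Thbd every diet point lies below every control point, for F3 every diet point lies above, and for Procr, Plat, Plau, Vwf and F5 the groups overlap.

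Among the genes of initiation, F3 (chromosome 3, 121723537 to 121735048 on GRCm38, plus strand) rose. Its level was 5.69 CPM at the lowest, 11.5 at the median and 22.8 at the highest in diet libraries, against 2.84, 3.23 and 5.35 CPM in control libraries. The lowest diet library thus still exceeded the highest control library. The log2 change was 1.77 ± 0.21 (SE; adjusted p = 4.55e-07), a 3.41-fold rise. Its inhibitor Tfpi (chromosome 2, 84432855 to 84476775, minus strand) went the other way. Tfpi had 26.8 CPM at the lowest, 38.6 at the median and 60.9 at the highest in diet libraries, against 286, 490 and 593 CPM in control libraries. It fell by 3.57 on the log2 scale (SE 0.12; adjusted p = 1.44e-15), so the level in control was 11.9-fold that under diet.

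F3 was not called at ZT0 (0.92 ± 0.38, adjusted p = 0.0813, and 0.0415 by DESeq2). It was called at ZT6 (2.13 ± 0.46, adjusted p = 0.00119), ZT12 (1.85 ± 0.45, adjusted p = 0.00347) and ZT18 (2.18 ± 0.39, adjusted p = 0.000202). The ZT12 call ended without replicate 2 of control ZT12 (1.59, adjusted p = 0.0723). Of the diet libraries, replicate 3 of ZT18, replicate 1 of ZT12 and replicate 1 of ZT6 had the highest F3, at 22.8, 17.8 and 16.2 CPM. Replicates 2 and 3 of diet ZT0 had the lowest, at 5.69 and 5.78 CPM. Cholangiocyte markers, all 10 of which rose, differed in the same direction between these libraries. Their summed level was 3880, 5180 and 5108 CPM in the 3 libraries with most F3, against 1451 and 1377 CPM in the 2 with least, and 376 to 980 CPM in control libraries. Macrophage markers (15 of 18 higher and 1 lower) summed to 7099, 9123 and 7747 CPM in the same 3 libraries, and to 3102 and 3389 CPM in the same 2. Both lists hold Spp1, so the sums are not independent. Hepatocyte markers (9 of 15 higher and 1 lower) summed to 2236, 2370 and 1885 CPM in the same 3 libraries. In the same 2 they summed to 1686 and 1573 CPM. The lowest hepatocyte sum under diet, 1064 CPM, was that of replicate 3 of ZT6, which had 8.31 CPM of F3. Large vessel endothelial markers (12 of 14 lower and 1 higher) summed to 3343, 5064 and 4930 CPM in the same 3 libraries. In the same 2 they summed to 1478 and 1393 CPM. Not every library followed these orders. Replicate 1 of diet ZT0 had 11.3 CPM of F3 at a cholangiocyte sum of 1610 CPM. Replicate 1 of diet ZT18 had 7.52 CPM of F3 at a sum of 2471 CPM. The part of these cell types in the F3 difference was not tested. With a hepatocyte marker score as covariate F3 was not called (1.41, adjusted p = 0.117). Of the variance of that score 68% lay between diet and control, so the fit cannot separate it well from diet. Over all genes that fit called 2147 higher and 2600 lower, against 6161 and 5587 without the score.

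The protein C pathway begins with Thbd and Procr, which lie on chromosome 2 at 148404466 to 148408188 and at 155751117 to 155755471. Thbd had 13.3 CPM at the lowest, 20.5 at the median and 40.1 at the highest in diet libraries, against 69.04, 191 and 224 CPM in control libraries. It fell by 2.99 on the log2 scale (SE 0.18; adjusted p = 8.05e-12). Procr had 4.83, 8.45 and 13.1 CPM in diet libraries, against 6.90, 9.76 and 15.7 CPM in control libraries, and 8 of the 12 diet libraries lay inside the control range. Its log2 change was -0.35 ± 0.15 (adjusted p = 0.0531). Thrombomodulin message was thus lost by far more than that of its partner receptor.

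The Procr value lay close to the threshold. It passed it, as lower, without replicate 2 of control ZT0 (-0.41, adjusted p = 0.0156), replicate 1 of control ZT12 (-0.41, 0.0398), replicate 1 of diet ZT0 (-0.38, 0.0413), replicate 1 of diet ZT12 (-0.43, 0.0132) or replicate 2 of diet ZT18 (-0.37, 0.049). At single times Procr was called at ZT0 alone (-0.99 ± 0.28, adjusted p = 0.0102), a call that ended without replicate 3 of control ZT0 (-0.79, adjusted p = 0.0718). Thbd was called lower at each time, with log2 changes from -3.32 at ZT0 to -2.39 at ZT18.

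F8 (chromosome X, 75172715 to 75382615, minus strand) had the largest change of the 9 genes. It had 22.6 CPM at the lowest, 29.2 at the median and 39.7 at the highest in diet libraries, against 393, 619 and 782 CPM in control libraries. The fall was 4.29 on the log2 scale (SE 0.11; adjusted p = 7.72e-17), so that control held 19.6-fold the level under diet. Its value was steady over the day, being -4.33 ± 0.22 (ZT0), -4.36 ± 0.23 (ZT6), -4.14 ± 0.23 (ZT12) and -4.33 ± 0.22 (ZT18). The gene shares bases with Fundc2 on the opposite strand, and the strand setting of the counting is not given in the sources used here.

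Vwf (chromosome 6, 125546774 to 125686679, plus strand) fell less. It had 4.97 CPM at the lowest, 8.25 at the median and 12.97 at the highest in diet libraries, against 10.1, 20.4 and 41.8 CPM in control libraries. Only replicate 1 of control ZT18 lay below the highest diet library, replicate 1 of ZT12. The log2 change was -1.40 ± 0.17 (adjusted p = 4.18e-07). By time the change was -2.32 ± 0.33 (ZT0), -1.68 ± 0.35 (ZT6), -0.97 ± 0.35 (ZT12) and -0.64 ± 0.32 (ZT18), and that at ZT18 was not called (adjusted p = 0.139). Leaving out replicate 2 of control ZT6 ended the ZT6 call (-0.85, adjusted p = 0.124). The ZT12 call (adjusted p = 0.0413) ended without replicate 1 of control ZT12 (-0.45, adjusted p = 0.519), replicate 2 of diet ZT12 (-0.76, 0.153) or replicate 3 of diet ZT12 (-0.94, 0.0927). It also ended with a replicate block (-0.95, adjusted p = 0.0646) and with scaling by library size alone (-0.75, adjusted p = 0.116).

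F5 (chromosome 1, 164151838 to 164220277, plus strand) was the rarest of the 9 genes. It had 0.543 CPM at the lowest, 2.88 at the median and 4.05 at the highest in diet libraries, against 0, 1.37 and 2.36 CPM in control libraries. Of the 12 diet libraries, 9 exceeded every control library. The log2 change was 0.99 ± 0.42 (adjusted p = 0.0544, and 0.016 by DESeq2). Replicate 1 of control ZT6 had 0 counts of F5, which allows up to 0.156 CPM. F5 was called higher once replicate 1 of diet ZT6 was left out (1.10, adjusted p = 0.0271), or replicate 2 of control ZT6 (adjusted p = 4.34e-05), which leaves the library at 0 alone in its group. Hepatocyte markers moved the same way, with 9 of 15 higher and 1 lower, and summed to 1064 to 2370 CPM in diet libraries against 485 to 820 CPM in control libraries. With the hepatocyte score as covariate the log2 change of F5 was -0.74 (adjusted p = 0.752), in a fit that cannot separate the score well from diet.

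**Figure D2:**
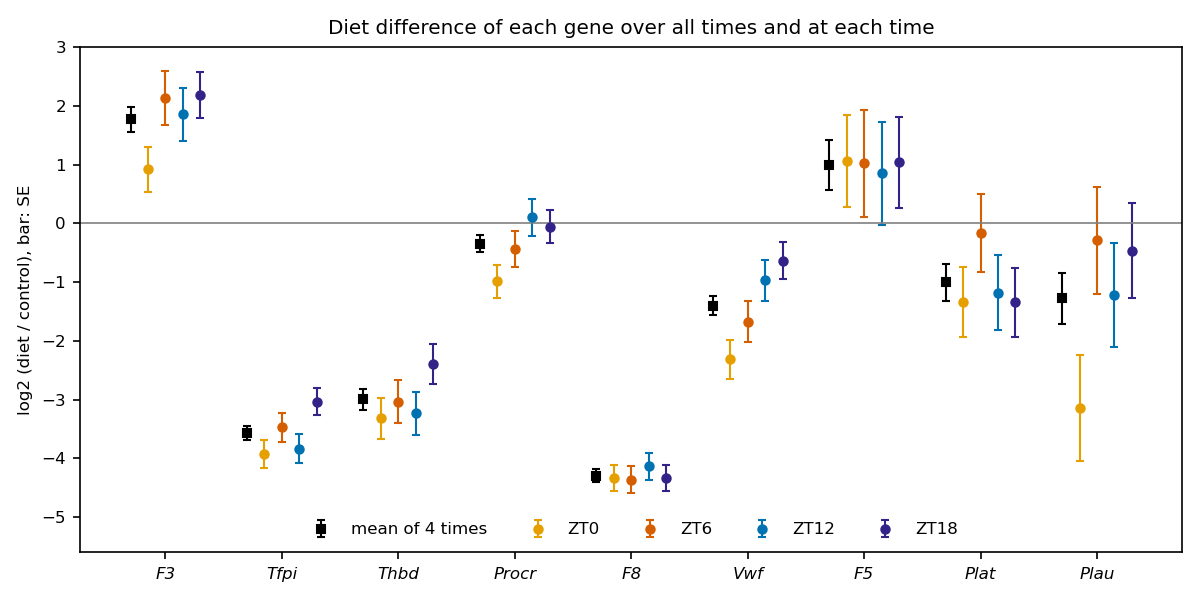
Log2 change of each gene, diet over control, as the mean of the 4 times (squares) and at each time (circles), with the standard error. F8, Tfpi and Thbd lie between -4.36 and -2.39 at every time, F3 lies above 0 at every time, and the values of Vwf run from -2.32 at ZT0 to -0.64 at ZT18.

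The 2 plasminogen activators fell and, relative to their means, varied most between libraries. Plat (chromosome 8, 22757727 to 22782844, plus strand) had 2.76 CPM at the lowest, 5.22 at the median and 14.3 at the highest in diet libraries, against 2.79, 15.4 and 32.9 CPM in control libraries. Its log2 change was -1.01 ± 0.31 (adjusted p = 0.00924). Plau (chromosome 14, 20836660 to 20843385, plus strand) had 0.541, 1.69 and 6.98 CPM in diet libraries, against 0.166, 6.51 and 11.5 CPM in control libraries. Its log2 change was -1.28 ± 0.43 (adjusted p = 0.0176). The groups overlapped for both genes. For Plat, 11 of the 12 diet libraries lay within the control range. For Plau all 12 did, but replicate 1 of control ZT18 alone set its lower end, and without that library (next lowest 3.22 CPM) 3 of the 12 did.

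Neither call held throughout. Leaving out replicate 1 of control ZT6 ended the Plat call (-0.76, adjusted p = 0.0645), as did leaving out the ZT18 libraries (-0.91, adjusted p = 0.0522). The Plau call held when any single library was left out (highest adjusted p = 0.0401) and ended without all ZT0 libraries (-0.68, adjusted p = 0.327). With the hepatocyte score as covariate neither Plat (-0.51, adjusted p = 0.803) nor Plau (-1.13, adjusted p = 0.607) was called. That fit cannot separate the score well from diet. At single times Plau was called at ZT0 (-3.14 ± 0.89, adjusted p = 0.0103), where its level was 0.968 ± 0.523 CPM under diet and 8.51 ± 2.87 CPM in control (SD, n = 3 each). That call ended without replicate 1 of diet ZT0 (-2.84, adjusted p = 0.0504). Plat was called at no single time in the main analysis. With no filter on low counts it was called at ZT0, ZT12 and ZT18, with a replicate block at ZT12 (-1.54, adjusted p = 0.0311), and without the 2 control libraries that stood apart at ZT0 (-1.75, adjusted p = 0.024). It also passed the threshold at ZT0 without replicate 2 of control ZT0 (-1.75, adjusted p = 0.0264), at ZT12 without replicate 1 of diet ZT12 (-1.98, 0.0348) and at ZT18 without replicate 3 of diet ZT18 (-1.92, 0.0387). The last 2 libraries had the highest Plat (12.9 and 14.3 CPM) and Plau (6.98 and 6.63 CPM) among the diet libraries.

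Counted by time, 6 of the 9 genes were called lower at ZT0 and none higher. At ZT6 and at ZT12, 4 were lower and 1 higher, and at ZT18, 3 were lower and 1 higher. Of all genes tested, 30% were called for ZT0 (16.5% lower, 13.5% higher), 30.1% for ZT6 (15.3% lower, 14.8% higher), 29.6% for ZT12 (15.3% lower, 14.3% higher) and 30.9% for ZT18 (15.5% lower, 15.3% higher). F8, Tfpi and Thbd were lower at all 4 times.

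Paired genes were compared within each library as log2 ratios of CPM + 1, by exchanging diet and control labels among libraries of the same time (exact permutation test, two-sided, 40000 arrangements, adjusted over 3 ratios). The ratio of the initiator F3 to its inhibitor Tfpi was -1.70 ± 0.61 in diet libraries (SD, n = 12) and -6.66 ± 0.34 in control libraries (n = 10). The difference, averaged over the times, was 5.003, or 32.1-fold (exact permutation p = 2.5e-05, the smallest the arrangements can give; adjusted p = 3.75e-05). No diet library had a ratio under -2.62 and no control library one over -6.16. As F3 and Tfpi each separated the groups in opposite directions, their ratio had to separate them too. Its p-value thus restates the changes of the single genes. The ratio of Thbd to Procr was 1.25 ± 0.41 in diet libraries and 3.81 ± 0.44 in control libraries, a difference of -2.62 (exact permutation p = 2.5e-05; adjusted p = 3.75e-05), again with no overlap. Thbd alone already separated the groups and Procr was not called over all times, so this ratio mainly restates the fall of Thbd. The ratio of Plau to Plat was -1.06 ± 0.60 in diet libraries and -1.08 ± 1.54 in control libraries, a difference of -0.05 (exact permutation p = 0.912; adjusted p = 0.912).

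**Figure D3:**
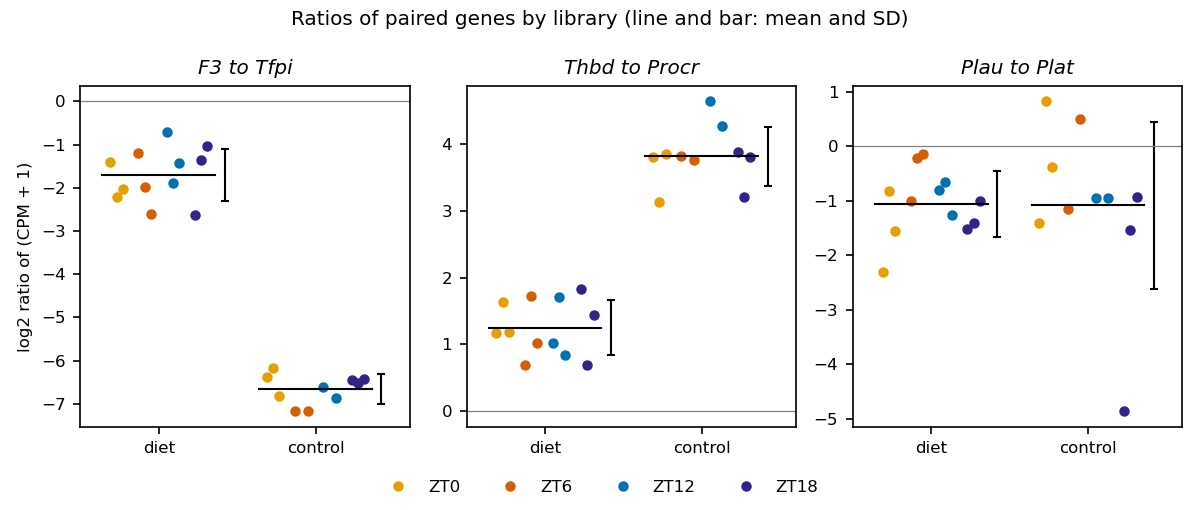
Log2 ratio of CPM + 1 of 3 pairs of genes in each of 12 diet libraries (left) and 10 control libraries (right), coloured by zeitgeber time, with mean and SD. F3 to Tfpi is higher and Thbd to Procr lower in every diet library than in any control library, and Plau to Plat overlaps, with 1 control library at -4.86.

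The proteins with which the 9 gene products work were taken as a list of 13, of which 6 were higher, 6 lower and 1 not called. Of all genes tested, 27.5% were higher and 24.9% lower. Of the machinery that exports factors V and VIII from the endoplasmic reticulum, the cargo receptor Lman1 fell by 1.32 on the log2 scale (SE 0.08; 40.8 ± 6.45 CPM under diet and 100.97 ± 13.5 in control) and its partner Mcfd2 by 1.95 (SE 0.10). Stab2, a scavenger receptor of sinusoids that clears von Willebrand factor and factor VIII, fell by 4.33 (SE 0.12), about as much as F8 itself. Adamts13, the protease that cuts von Willebrand factor, was near the limit of detection, at 0.536 ± 0.374 CPM under diet and 0.534 ± 0.471 in control, and was not called (adjusted p = 0.934). Protein S (Pros1), the cofactor of activated protein C, fell to 28.7 ± 9.90 CPM under diet, against 310 ± 67.9 CPM in control. Protein C itself (Proc), made by hepatocytes, rose to 35.7 ± 14.4 CPM under diet, against 10.8 ± 2.18 in control.

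Among partners of the plasminogen activators, the urokinase receptor Plaur rose to 36.4 ± 10.4 CPM under diet, against 11.2 ± 4.73 in control (log2 1.76 ± 0.13), while its ligand gene Plau fell. Serpine2, an inhibitor of thrombin and of both activators, rose by 2.16 ± 0.22. The inhibitor Tfpi2, a relative of Tfpi, fell by 3.01 (SE 0.25). Plg, which encodes plasminogen (1.502 ± 0.26), the clearance receptor Lrp1 (0.85 ± 0.18) and F13a1, the fibrin cross-linking factor of macrophages and platelets (2.25 ± 0.48), rose. The thrombin receptor F2r fell by 1.90 (SE 0.10). Each of these 12 calls was made at an adjusted p of 0.000508 or less. With the hepatocyte score as covariate Plg (1.29, adjusted p = 0.308), Lrp1 (0.40, 0.677) and F13a1 (0.395, 0.908) were not called. Here too the score cannot be separated well from diet.

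Lists of related genes were described by their counts, beside 27.5% higher and 24.9% lower among all genes tested. Of 23 clotting genes known from hepatocytes, 16 were higher, 1 (Pros1) lower and 6 not called, with a median log2 change of 1.40. Vtn, which encodes vitronectin, changed by 1.62 ± 0.15. Of 14 genes that control fibrinolysis, 10 were higher and 2 lower (the complement protease Masp1, -4.001 ± 0.10, and the mannose receptor Mrc1 of sinusoids and macrophages, -4.26 ± 0.13). Of 10 genes of export and vitamin K-dependent carboxylation, 6 were lower and none higher, among them the carboxylase Ggcx (-1.81 ± 0.10) and the calcium-binding protein Calu (-1.73 ± 0.08). Of 4 thrombin receptors, F2r was lower and F2rl1 higher (2.85 ± 0.52). With the hepatocyte score, which cannot be separated well from diet, F2rl1 changed by 2.36 (adjusted p = 0.264). Of 11 platelet markers tested, 3 were higher and 2 lower (Clec1b, -2.85 ± 0.10, and Gp1ba, -2.54 ± 0.38), and the 12 listed summed to 89.2 to 147 CPM in diet libraries against 241 to 613 CPM in control libraries. Clec1b, which sinusoidal endothelium can also express, made up most of the control sum. The other 11 summed to 24.3 to 88.6 CPM (median 62.9) in diet libraries and 35.6 to 88.9 CPM (median 51.9) in control libraries. Platelets also hold factor V and von Willebrand factor, and the part of platelets in those values was not tested.

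**Figure D4:**
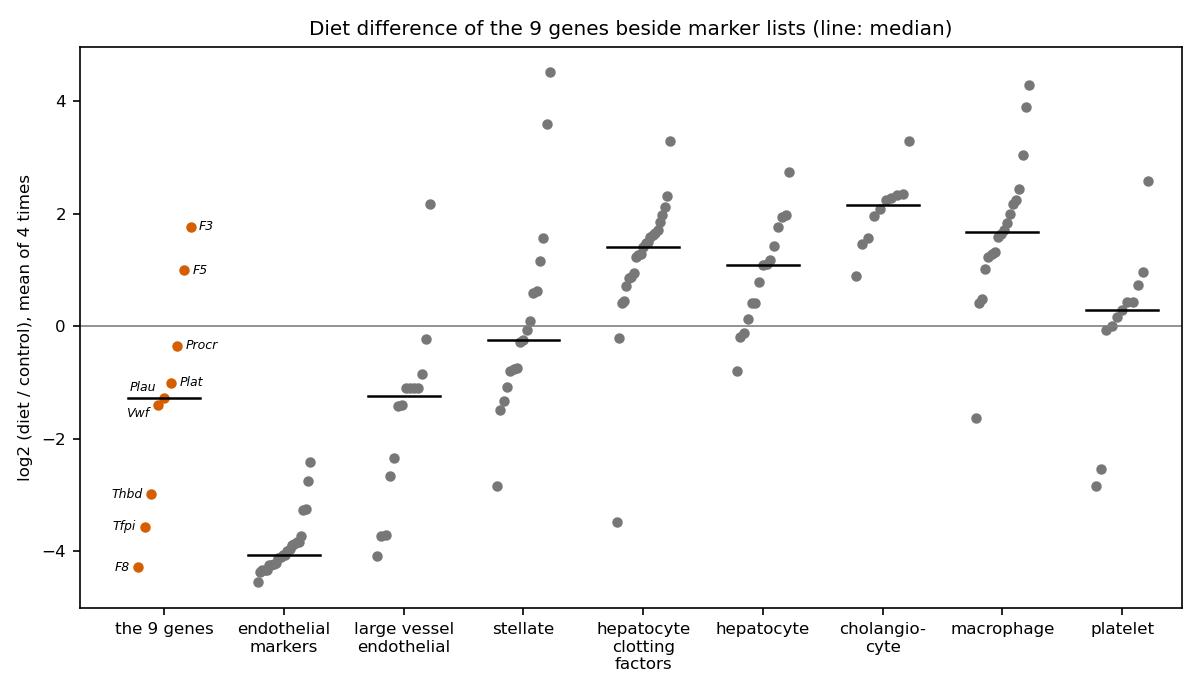
Log2 change, diet over control, of the 9 genes (orange) and of each tested gene of marker lists (grey), with the median of each list as a line. Of the list medians, F8, Tfpi and Thbd lie nearest that of the endothelial markers (-4.07). Vwf, Plau and Plat lie nearest that of the large vessel markers (-1.25), a list that holds Vwf. F3 and F5 lie near several medians above 0: hepatocyte markers (1.09), hepatocyte clotting factors (1.40), macrophage (1.67) and cholangiocyte markers (2.16). A place near a median does not assign a gene to a cell type.

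Because endothelial RNA differed so much between the groups, each gene was also tested relative to the geometric mean of the 24 endothelial markers, none of which is among the 9 genes. That mean was 42.2 to 96.7 CPM in diet libraries and 611 to 1092 CPM in control libraries, a log2 difference of -3.86. Relative to it, F8 was lower (-0.42 ± 0.11, adjusted p = 0.000802), as were 0.361% of all genes tested. With other marker sets or a replicate block the F8 value ran from -0.64 to -0.31 and stayed called. Stab2, itself among the 24 markers, fell about as much as F8, so F8 lay within the range of the single markers. The other 8 genes were relatively higher, as were 92.8% of all genes tested. Tfpi was nearest to the markers (0.29 ± 0.08, adjusted p = 0.00285), followed by Thbd (0.87 ± 0.13), Vwf (2.46 ± 0.20) and Plau (2.57 ± 0.47). Plat (2.92 ± 0.34), Procr (3.54 ± 0.21), F5 (4.82 ± 0.50) and F3 (5.65 ± 0.28) lay furthest away. With 8 markers of endothelium in general in place of all 24, Tfpi was not called (0.07, adjusted p = 0.470). In the comparison without that reference, 12 of 14 markers of larger vessels, Vwf among them, were lower and 1 higher, with a median of -1.25. Of all genes tested, 24.9% were lower and 27.5% higher there.

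Levels of different genes were compared per kilobase of exon. In diet libraries the order of CPM per kilobase was Tfpi (7.38 ± 2.15, SD), Thbd (5.84 ± 1.99), F3 (4.82 ± 2.07), Procr (4.21 ± 1.34), F8 (3.18 ± 0.60), Plau (1.12 ± 0.90), Plat (1.02 ± 0.60), Vwf (0.52 ± 0.14) and F5 (0.38 ± 0.13). Within it, each of the first 5 lay within the SD of its neighbour, as did Plau and Plat, and Plat and Vwf. In control libraries the order of CPM per kilobase was Tfpi (84.2 ± 18.4), F8 (61.8 ± 11.2), Thbd (45.0 ± 15.4), Procr (5.23 ± 1.61), Plau (2.60 ± 1.33), Plat (2.32 ± 1.35), Vwf (1.42 ± 0.64), F3 (1.39 ± 0.31) and F5 (0.19 ± 0.09). Here Plau and Plat, Plat and Vwf, and Vwf and F3 lay within the SD of one another. F3 had position 3 under diet and position 8 in control, and the gap between Thbd and Procr was wide in control and within the spread under diet.

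Daily time was compared next, since some genes of this kind are known to follow the clock in vessels. None of the 9 was called among times in control, under diet or for an interaction of diet and time by edgeR's quasi-likelihood test, where 5.74%, 1.08% and 0.959% of all genes tested were. At an unadjusted p under 0.05 there were 2 of the 9 in each comparison, where 20.6% of all genes tested were in control, 11.8% under diet and 14.5% for the interaction. DESeq2 called 1 of the 9 in each, among 3103, 1128 and 1464 genes in all. In control the 2 genes with an unadjusted p under 0.05 by edgeR were Vwf and Procr. Vwf averaged 30.5 ± 2.699 CPM at ZT0, 28.9 ± 18.2 by ZT6, 18.9 ± 8.10 by ZT12 and 13.7 ± 3.15 by ZT18 (adjusted p = 0.0855, and 0.0153 by DESeq2), and passed without replicate 1 of control ZT6 (0.0195). Procr averaged 11.003 ± 3.48, 15.2 ± 0.675, 8.62 ± 2.44 and 8.49 ± 0.586 CPM at the same times (adjusted p = 0.239).

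Under diet the 2 genes were Tfpi and Procr. Tfpi averaged 29.4 ± 2.39 CPM at ZT0, 51.6 ± 11.6 by ZT6, 34.3 ± 10.2 by ZT12 and 46.0 ± 6.58 by ZT18 in diet libraries (adjusted p = 0.143, and 0.0244 by DESeq2). In control libraries Tfpi averaged 448 ± 140, 572 ± 29.2, 490 ± 43.3 and 378 ± 23.8 CPM at those times (adjusted p = 0.365). Its ZT6 mean was the highest in both diets. Procr averaged 5.55 ± 0.902, 11.2 ± 0.905, 9.28 ± 3.63 and 8.17 ± 1.04 CPM in diet libraries (adjusted p = 0.245), also with its highest mean at ZT6. For the interaction the 2 genes were Vwf (adjusted p = 0.160, and 0.0326 by DESeq2) and Tfpi (adjusted p = 0.309). Without replicate 2 of control ZT0, Tfpi passed under diet (adjusted p = 0.0274) and for the interaction (0.0423).

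Of the other genes, Thbd had its highest mean at ZT6 in both diets (27.2 ± 11.2 CPM under diet and 223 ± 1.70 in control), and its control mean was lowest at ZT18, at 118 ± 22.1 CPM (adjusted p = 0.615 under diet and 0.269 in control). Plat in control had its highest mean at ZT18 (21.8 ± 9.61 CPM, n = 3) and its lowest at ZT6 (5.55 ± 3.91 CPM, n = 2; adjusted p = 0.281). F5 passed among times in control without replicate 2 of control ZT6 (adjusted p = 0.039), which leaves 1 library at 0 counts at that time. The endothelial markers also had their highest level at ZT6 in both diets. Their geometric mean was 47.0 ± 4.14, 79.4 ± 19.2, 61.4 ± 4.53 and 59.9 ± 10.2 CPM over ZT0, ZT6, ZT12 and ZT18 in diet libraries, and 865 ± 221, 1073 ± 26.5, 855 ± 54.5 and 754 ± 12.9 CPM in control libraries. Of the 24, 4 (Kdr, Flt4, Esam and Cldn5) were called among times under diet and 2 (Flt4 and Lyve1) in control. The part of endothelial RNA in the times of Tfpi, Thbd and Procr was not tested. With no filter on low counts, 4, 2 and 4 of the 9 genes were called in control, under diet and for the interaction. In that setting 2866, 1500 and 2085 genes were called in all, and their share of the genes tested was not computed. Among the 13 partners, Plaur was called among times in control (adjusted p = 0.016) and for the interaction (0.0236), and Pros1 under diet (0.038).

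**Figure D5:**
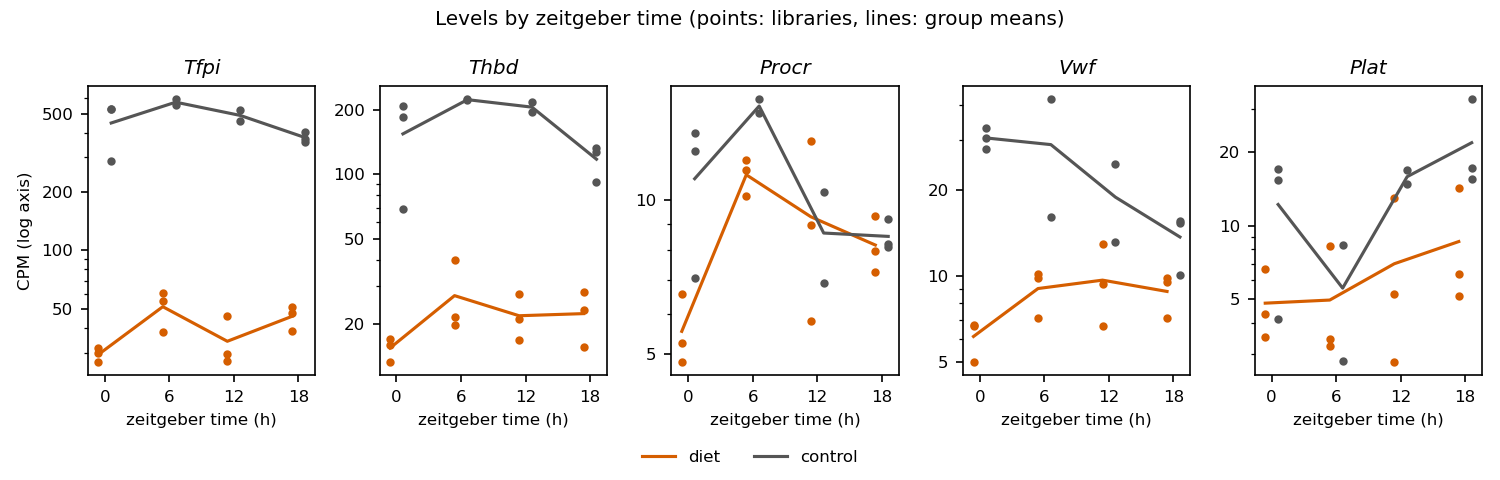
CPM on a log axis against zeitgeber time for 5 of the 9 genes in diet and control libraries, with points for libraries and lines through group means. Tfpi, Thbd and Procr have their highest mean at ZT6 in both diets, and Vwf in control runs from 30.5 CPM at ZT0 to 13.7 CPM at ZT18, though none of these passed the test over times.

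Genes with the most similar pattern were sought by Pearson's r of log2 CPM over the 22 libraries, as a description. Over all libraries, which fall into a diet and a control cluster so that r mostly holds the diet difference, F8 was nearest to the endothelial phosphatase Ptprb (r = 0.997), Tfpi to the lipid phosphatase Plpp1 (0.997), Thbd to the kinase Sgk1 (0.989) and F3 to the plasma protein gene Ambp (0.966). Vwf was nearest to Clca3a1 (0.901), Procr to Il18bp (0.839), Plat to Pi16 (0.834), F5 to the apolipoprotein gene Apoc3 (0.828) and Plau to Gde1 (0.788). After each group's mean was removed, Tfpi was nearest to the endothelial co-receptor Eng (0.916), Thbd to Rnase4 (0.911), F8 to Acvr2a (0.905), Plat to Stap2 (0.901) and Plau to Abcf3 (0.898). F3 was then nearest to Tmem106c (0.883), Vwf to Cadm1 (0.879), Procr to Prrg2 (0.875) and F5 to Csf2rb (0.819). Each of these r values is the highest over many genes, and the level that chance reaches was not computed. Among the 9 genes themselves, the closest pairs after that step were F8 and Tfpi (0.731), Thbd and Tfpi (0.699), Procr and Plat (0.683) and F3 and Plat (0.616). Replicate 2 of control ZT0, which had stood apart, was the lowest of its group for each of these 6 genes. It had 393 CPM of F8, against 659 and 664 CPM in the other libraries of its group. For Tfpi it had 286 CPM, against 528 and 529 CPM. The r values after that step may thus lean on this library, and they were not computed without it.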

How the data were processed

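Counts of 22 libraries of mouse liver cells were analysed. The submitters' processing notes name STAR 2.7.9a, HTSeq, DESeq2 and the build GRCm38 (mm10), by which the authors made the deposited tables. No annotation or strand setting is given in the sources used here. The deposited whole-number counts per gene symbol were used, and the authors' normalised table was not. Counts were tested with edgeR 4.0.16 (limma 3.58.1, R 4.3.3): filterByExpr, TMM scaling, glmQLFit and glmQLFTest, with 8 group means in a single model and Benjamini-Hochberg adjustment over 22409 genes. CPM are means ± SD over libraries, and log2 CPM used a prior count of 2. For the test relative to endothelial markers, offsets were shifted by the log of their geometric mean CPM + 1. The log2 changes are unshrunken, with standard errors from the quasi-likelihood F.

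The 9 genes and all lists were chosen with earlier results of these data known. Named are the 9 genes, 13 partners, at most 3 genes with the smallest p of other lists, and the nearest gene of each of the 9. A further list gene is not reported here. Coordinates and exon lengths come from GENCODE M21 (GRCm38). The tests were checked on simulated data with 200 changed genes, as many raised as lowered. Over all times 92% of 2-fold changes were recovered and 4.17% of calls were false. For the interaction 74% of 4-fold changes were recovered and 6.92% of calls were false. In the data 52.4% of genes were called over all times, so the check does not cover so broad a change. Its changed genes were also not drawn from genes as rare as F5. In all 20 pairs of libraries within groups, replicates differed beyond counting noise (lowest chi-square over its degrees of freedom 16.4). Alternatives were other scalings, filters, DESeq2 1.42.0, a replicate block, marker scores as covariates, 24 h cosine terms, fits of 1 diet alone, and each library or time left out.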

Additional observations from a re-analysis of the deposited data

Results flagged for a closer look

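Within the 10 control libraries, a library was singled out when its gap to the next was large for the range of the group (Dixon's test, at a level that chance reaches in about 1 of 20 groups); 12 sets of values were examined. Replicate 1 of control ZT18 had the lowest Plau, at a log2 CPM of -2.03 (4 counts, where the other control libraries had 62 to 325). The same library had the lowest log2 ratio of Plau to Plat, -4.86, and the highest Plat (32.9 CPM). Its stellate marker sum, 1246 CPM, was the highest of all libraries. Replicate 1 of control ZT6 had the lowest F5, at a log2 CPM of -3.68 (0 counts). Without replicate 1 of control ZT18 together with replicate 2 of control ZT0, Plau changed by -1.43 under diet (edgeR, adjusted p = 0.00174) and Plat by -1.005 (adjusted p = 0.00587).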

How the results depend on the processing

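Of 4147 recomputed values of 137 results, 3950 were classed as the same as in the main analysis, and the cause of the other 197 was not tested. For single genes and ratios this meant the same side of the threshold and, where the test has a direction, the same direction. For counts of genes it meant a count within a set fold of the main one. Scaling by library size alone called 2 of the 9 genes higher over all times (F5 added), 1 higher at ZT0 (F3) and 562 genes among times under diet (241 in the main analysis), and turned Plat at ZT6 (0.11) and Procr at ZT18 (0.0618). With no filter on low counts, 2 of the 9 were higher over all times, 1 at ZT0, and 2866 genes were called among times in control (1287 in the main analysis), 1500 under diet and 2085 for the interaction (215), with 4, 2 and 4 of the 9 genes. A mean CPM of at least 5 gave 1 of the 9 higher at ZT0, 416 genes among times under diet and 396 for the interaction. DESeq2 gave 2 of the 9 higher over all times, 1 at ZT0, and 3103, 1128 and 1464 genes among times in control, under diet and for the interaction, with 1 of the 9 in each. Without both control libraries that stood apart, 632 genes and 1 of the 9 (Tfpi) were called among times under diet and 1004 genes for the interaction. Cosine terms of 24 h called 709 genes in control and 24 under diet, and fits of 1 diet alone 268 and 406. Without the ZT6 libraries 2 of the 9 were higher. With 8 pan-endothelial markers 136 genes were relatively lower (81 in the main analysis).

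With the endothelial score as covariate, of whose variance 97.7% lay between diet and control, 0 genes were called higher and 0 lower, and 0 of the 9. Thbd (3.07), Procr (0.32), Tfpi (0.72), Plat (0.49), Adamts13 (-2.02), Lman1 (0.14), Mcfd2 (0.65), Stab2 (0.13), Tfpi2 (4.61), Pros1 (0.56), F2r (0.89), Mrc1 (0.41), F2rl1 (-1.66), F2rl3 (-2.35), Calu (0.0871) and Gp1ba (3.45) changed sign. With the hepatocyte score (68% of variance between the diets) 2147 genes were higher and 2600 lower, 0 of the 9 higher, and F5 (-0.74) and Adamts13 (-2.63) changed sign. That setting also ended the calls of F3, Plat, Plau, Plg, Lrp1, F13a1, F2rl1 and Gp5. Adamts13 also did without the ZT0 libraries (-0.30).

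Leaving out each library in turn gave 1 to 2 of the 9 genes higher over all times, 1 to 2 at ZT6 and 0 to 1 at ZT12, 2114 to 3384 genes higher at ZT12, 790 to 1957 genes among times in control, 96 to 663 under diet and 76 to 1086 for the interaction, with 0 to 1 of the 9 in each. Values that changed sign in it ran from -0.185 to 0.585 for Adamts13, -0.0135 to 0.690 for F2rl3, -0.761 to 0.824 for Plat at ZT6, -0.0065 to 8.78 for F5 at ZT6, -0.226 to 0.413 for Procr at ZT12, -0.160 to 0.0232 for Procr at ZT18 and -1.59 to 0.214 for Plau at ZT18. Plau to Plat ran from -0.35 to 0.15. Of 71 same-numbered pairs of libraries, 2 had correlated deviations over 0.1 (-0.143 to 0.138). The numbers thus gave no sign of pairing, which deviations within such small groups cannot exclude. The replicate block called 123 genes for the interaction, ended the Vwf call at ZT12 (-0.95) and made one of Plat at ZT12 (-1.54). Low counts limit F5, Plau and Adamts13.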
